A study of Mus musculus with 7 samples.

Results

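The genes that encode the subunits of the proteasome and of the cytosolic chaperonin were read from the gene table by symbol. A row was taken when its symbol began with Psma to Psmg and a digit or with Cct and a digit from 2 to 8, or when it was Psme1 to Psme4 or Tcp1. These patterns found 60 of the 24084 gene symbols. They were 15 genes of the 20S core particle (8 of the alpha ring and 7 of the beta ring), 6 of the immunoproteasome with its activator, the thymus subunit Psmb11, 17 of the 19S cap (6 ATPases and 11 other subunits), 3 other activators or inhibitors, 7 assembly chaperones and 10 of the chaperonin. The last row, Psmc3ip, fits the pattern by name only. It encodes a protein of homologous recombination, is no proteasome subunit and is described apart.

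The proteasome is the barrel-shaped protease that breaks down proteins tagged with ubiquitin. Its core particle holds the proteolytic sites inside rings of beta subunits that lie between rings of alpha subunits, and the cap binds the tagged protein, removes the ubiquitin, unfolds the chain with its ATPases and feeds it into the core. In lymphocytes and in cells exposed to interferon, the catalytic beta subunits are replaced by immunosubunits, which changes the peptides made for presentation on class I molecules. The chaperonin, called TRiC or CCT, is a chamber of stacked rings, each built from different but related subunits, in which actin, tubulin and other proteins are folded.

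RNA was sequenced from sorted regulatory T cells (Tregs), the Foxp3-expressing CD4 T cells that restrain immune responses. There were 3 libraries from skin-draining lymph nodes (SDLN) and 4 from skin named as telogen, the resting stage of the hair cycle. All came from mice 6 weeks old of the strain Foxp3-DTR, given elsewhere as Foxp3-DTR/GFP, and the labels name no treatment for either group. The diphtheria toxin receptor and the fluorescent protein are expressed under control of the Foxp3 locus, so SDLN and skin cells carry the same allele. The design sets Tregs of skin against those of SDLN. Sort gates, animals per library and whether libraries came from separate animals were not given in the sources used here. The p-values below therefore measure only the spread between these libraries. That spread may be technical, except that SDLN 3 held RNA of another sex, as given below.

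Counts assigned to genes were 11009609 to 14785751 per library, and 9690 to 12639 genes had a count in a skin library against 13408 to 13845 in an SDLN library. Foxp3, Cd4, Cd3e and Il2ra, which define the sorted cells, had counts in all 7 libraries, but not at equal levels. Cd3e was at 1848 ± 308 CPM in SDLN (SD, n = 3) and 882 ± 350 CPM in skin (SD, n = 4), with a log2 fold change of -1.07, and Cd4 was at 738 ± 78.01 and 466 ± 132 CPM, with -0.66. Both were lower in every skin library than in every SDLN library, Foxp3 was higher in every skin library (log2 fold change 0.93), and none of these genes passed the test. The CPM values are counts scaled to a common library size. For skin 1 the labels disagree, because the tissue tag gives the lymph node and the title gives skin, and it is treated as skin. SDLN 3 was the only library with more than 2 counts of the Y-linked Ddx3y, at 3877, and it held 4 counts of Xist, the RNA of the inactive X chromosome, against 4653 to 11758 in every other library. These counts mark SDLN 3 as male and every other library as female, so SDLN 3 shared no animal with them. Sex thus differed within SDLN and not within skin, and its part in the results was not tested. Skin libraries also held transcripts of other cells. The 16 macrophage and dendritic cell markers in the table summed to 355 to 571 CPM in SDLN. In skin 1 to 4 they summed to 3469, 3135, 819 and 11993 CPM, with 6 of the 16 above every SDLN library in each skin library; Cd207 was at 0 throughout and Itgax at 0 in SDLN. The 10 keratinocyte markers summed to 8.65 to 10.2 CPM in SDLN, to 1476 CPM in skin 3 and to 21.1 to 30.6 CPM in skin 1, 2 and 4, with Krt1 and Lor at 0 in every skin library. The 8 fibroblast markers summed to 0.386 to 0.950 CPM in SDLN, to 3069 CPM in skin 3 and to 3.07 to 11.1 CPM elsewhere in skin. Other lists were higher in SDLN: the 4 endothelial markers summed to 389 to 548 CPM there and 16.2 to 70.4 CPM in skin, and the 5 B cell markers to 78.6 to 102 CPM and 2.99 to 38.4 CPM. The 8 Treg and T cell markers summed to 8298 to 9979 CPM in SDLN and 7899 to 12539 CPM in skin. The part of these cells, and of the differences in T cell genes, in the results below was not tested.

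Transcripts of the 60 genes took a smaller share of the gene counts in skin than in SDLN. They made up 1.47%, 1.33% and 1.66% of the gene counts in SDLN 1 to 3. Skin 1 to 4 had 0.784%, 0.757%, 0.981% and 0.909%, so the tissues did not overlap. In RNA from bulk cells, fewer cells that use a gene and less RNA per cell cannot be told apart. Of the 60 genes, 56 passed the filter on low counts and were tested. At an adjusted p under 0.05 in edgeR's quasi-likelihood test, 4 of the 56 were lower in skin, where 3.96% of all 11376 tested genes were, and none was higher, where 3.28% were (7.24% in either direction). The 4 were Psmb8 of the immunoproteasome and Cct5, Cct3 and Tcp1 of the chaperonin. At an unadjusted p under 0.05, 14 were lower, against 8.52% of all tested genes, and none was higher, against 1142 of the 11376. DESeq2 called 9 lower and none higher, against 4.46% and 8.11% of all tested genes. The same counts were 6 and 0 with limma-voom, against 6.41% and 2.38%, and 5 and 0 with limma-voom weighted by tissue, against 8.68% and 5.22%. Among the 7046 genes with a mean level of 20 CPM or more, edgeR called 1.66% lower. The estimate was below 0 for 49 of the 56, against 48.2% of all tested genes and 47.2% of the abundant ones, and the median log2 fold change (skin over SDLN) was -0.62 over the 56 and 0.05 over all tested genes. All 4 skin libraries lay below all 3 SDLN libraries for 21 of the 56, against 16.5% of all tested genes and 14.1% of the abundant ones. No member had all skin libraries above all SDLN libraries, against 10.1% of all tested genes.

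The calls rested on few libraries. Without SDLN 1, 2 or 3 in turn, none of the 56 passed, although 10, 12 and 10 of them had an unadjusted p under 0.05 with a lower level in skin, and over all genes 9, 10 and 15 were then called lower. Without skin 1, 2, 3 or 4 in turn, 5, 3, 5 and 4 members were called lower. For these calls, and for the unadjusted counts without an SDLN library, the shares of all genes are not given here. Neither can thus be read as particular to the members. Cct5, Cct3 and Psmb8 were among those called in each of these 4 fits, and Tcp1 was called only in the fit without skin 1. The estimate was below 0 for 46 to 52 of the 56 when any one library was left out.

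**Figure D1:**
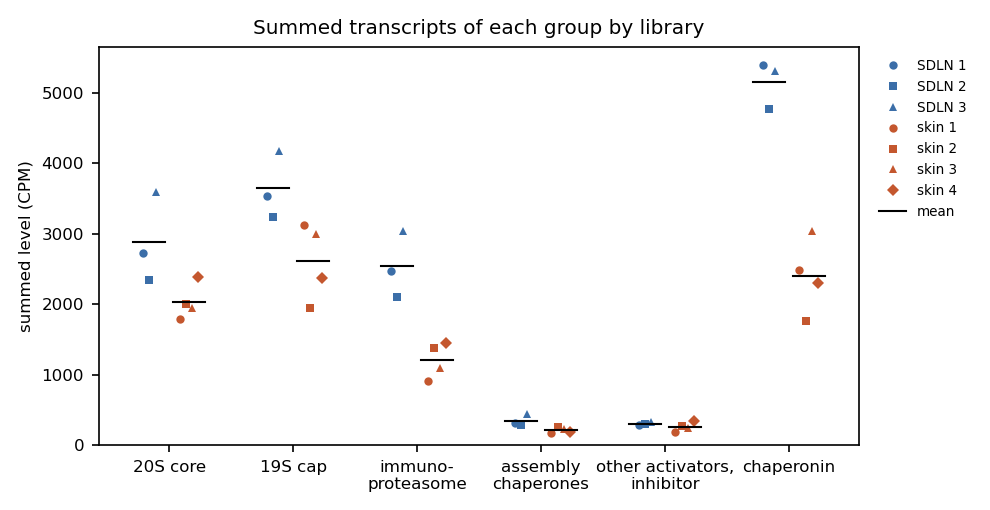
Summed level of each group of genes in each library, in CPM on an axis that starts at 0. Points are libraries, blue for SDLN and orange for skin, with a shape for each replicate number, and bars are group means. The chaperonin sums were 4762 to 5385 CPM in SDLN and 1756 to 3036 CPM in skin, whereas the 2 tissues overlapped for the 20S core.

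The plot of summed levels by library shows how unevenly the groups contributed. The chaperonin took the largest sum in SDLN, with 5385, 4762 and 5302 CPM, and stood at 2478, 1756, 3036 and 2296 CPM in skin 1 to 4. The immunoproteasome group stood at 2469, 2094 and 3038 CPM in SDLN and at 905, 1371, 1089.9 and 1445 CPM in skin. The 19S cap stood at 3533, 3228 and 4173 CPM against 3119, 1942, 2988 and 2371 CPM. For these 3 groups the highest skin library was below the lowest SDLN library, with the smallest gap in the 19S cap, between skin 1 and SDLN 2. The 20S core stood at 2717, 2335 and 3583 CPM in SDLN and at 1791, 1999.9, 1939 and 2388 CPM in skin, where skin 4 lay above SDLN 2.

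The chaperonin was the group with the most called members. Of its 10 genes, 8 were tested and all 8 had estimates below 0, against 48.2% of all tested genes. Of the 8, 3 were called lower, against 3.96%, and 7 had no overlap between the tissues, against 16.5%. Without SDLN 1, 2 or 3 none was called, and without skin 1 to 4 in turn 3, 2, 3 and 2 were. Their median log2 fold change was -1.03, and the difference from the median of the abundant genes was -1.101. The untested genes were Cct6b, a paralog best known from testis, and the Cct8-like gene Cct8l1. Their highest value in any library was 1.15 CPM.

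The stretches upstream of 4 chaperonin genes are shown because these genes encode subunits of a single ring and lay below SDLN together. They were chosen after their values were seen, and Tcp1, Cct2 and Cct6a, which also had no overlap between the tissues, are not shown. Each is the part of the 250 bases before the RefSeq transcription start (GRCm38.p6, the build of the files) that lies outside the exons of coding transcripts, read 5′ to 3′ on the strand of the gene. Capitals mark a match to CCAAT, the CCAAT box bound by NF-Y, read on the opposite strand as ATTGG, or to TTCNNNGAA, the gamma-activated site bound by STAT dimers. The Cct3 stretch is chr3:88297000-88297115 on the plus strand, Cct5 is chr15:31601847-31602096 on the minus strand, Cct7 is chr6:85451284-85451504 on the plus strand and Cct8 is chr16:87495874-87496119 on the minus strand.
Cct3: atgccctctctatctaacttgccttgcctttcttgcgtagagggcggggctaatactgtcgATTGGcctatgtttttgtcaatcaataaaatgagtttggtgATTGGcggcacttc
Cct5: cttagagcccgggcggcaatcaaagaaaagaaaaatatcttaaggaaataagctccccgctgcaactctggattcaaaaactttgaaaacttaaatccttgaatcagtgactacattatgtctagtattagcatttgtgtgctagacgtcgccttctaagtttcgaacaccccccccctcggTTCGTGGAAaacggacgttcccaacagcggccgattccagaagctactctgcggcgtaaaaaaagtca
Cct7: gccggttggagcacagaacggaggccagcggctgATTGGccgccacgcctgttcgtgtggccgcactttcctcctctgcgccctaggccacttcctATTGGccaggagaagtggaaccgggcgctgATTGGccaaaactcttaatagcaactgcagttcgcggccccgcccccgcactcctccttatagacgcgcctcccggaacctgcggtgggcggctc
Cct8: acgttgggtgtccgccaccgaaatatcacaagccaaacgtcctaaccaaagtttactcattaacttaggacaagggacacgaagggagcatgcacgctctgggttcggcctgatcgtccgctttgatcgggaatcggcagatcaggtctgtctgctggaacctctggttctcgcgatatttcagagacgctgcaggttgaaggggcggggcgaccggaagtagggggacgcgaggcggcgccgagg

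Cct3 held CCAAT at bases 62 to 66 and 103 to 107 of its stretch and Cct7 at 3 places, the first at bases 35 to 39, all on the strand opposite to the gene. Cct5 held TTCNNNGAA at bases 183 to 191 and no CCAAT. Cct8 held none of the 5 motifs searched. Of the chaperonin genes not shown, Tcp1 and Cct6a held both CCAAT and TGACNNNGC in their windows. Over whole windows of 250 bases on both strands, CCAAT was in 19 of the 51 members with a RefSeq promoter (37.3%) and in 34.5% of 27025 promoters, and TTCNNNGAA was in 3 of 51 (5.88%) and 7.18%. TGACNNNGC, the core of the antioxidant response element through which Nfe2l1 and Nfe2l2 act on proteasome genes, was in 7 of 51 (13.7%) and 10.1%. The interferon-stimulated response element, searched as GAAA, any 2 bases and GAAA again, was in 3 of 51 (5.88%) and 3.04%, and GAANNTTC, the heat shock element core, in 4 of 51 (7.84%) and 6.78%. The shares are descriptions of letters in these windows and say nothing of binding.

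Cct5, the epsilon subunit (chr15:31590800-31601804), was the most abundant chaperonin gene per length and had the smallest p of the group. It stood at 1136, 1012 and 1331 CPM in SDLN 1 to 3 and at 358, 347, 531 and 383 CPM in skin 1 to 4. Every skin library was below every SDLN library, by a clear gap. The means were 1159.8 ± 161 CPM (SD, n = 3) and 405 ± 85.3 CPM (SD, n = 4). Skin was 2.87-fold lower, with a log2 fold change of -1.52 (SE 0.24, adjusted p = 0.0145). Cct3, the gamma subunit (chr3:88297116-88321767), stood at 701, 602 and 693 CPM in SDLN and at 226, 204, 348 and 315 CPM in skin. The level in skin was 2.44-fold lower, a log2 fold change of -1.28 (SE 0.26, adjusted p = 0.0380), again with no overlap. Tcp1, the alpha subunit for which the complex is named (chr17:12915701-12925067), stood at 350.1, 343 and 424 CPM in SDLN and at 238, 154, 169.6 and 164 CPM in skin. Skin 1 was the highest skin library and still below SDLN, and the level was 2.05-fold lower (log2 fold change -1.04, SE 0.25, adjusted p = 0.0449). Tcp1 overlaps Acat3 in the annotation, and 18.2% of its transcript matches another gene at 95% identity or more. A part of its reads could be set aside or assigned to another gene. Without SDLN 1, 2 or 3 the adjusted p was 0.101, 0.0799 and 0.0901 for Cct5, 0.167, 0.155 and 0.165 for Cct3, and 0.183, 0.176 and 0.212 for Tcp1. Tcp1 also missed the threshold without skin 2, 3 or 4, at 0.0658, 0.0636 and 0.0890.

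The other 5 tested chaperonin genes had estimates below 0 and did not pass. Cct7, the eta subunit, stood at 873, 788 and 997 CPM in SDLN and at 380.1, 279, 593 and 483 CPM in skin (log2 fold change of -1.03, SE 0.29, adjusted p = 0.0808). Its tissues did not overlap, and it was called by DESeq2, by limma-voom and by edgeR without skin 3. Cct8, the theta subunit, stood at 899, 766 and 819 CPM in SDLN but split within skin, at 495 and 531 CPM in skin 1 and 3 against 94.0 and 143 CPM in skin 2 and 4 (log2 fold change -1.39, SE 0.59, adjusted p = 0.259). Cct2, the beta subunit, was at 512 ± 64.2 CPM (SD, n = 3) and 319.6 ± 60.4 CPM (SD, n = 4) with no overlap (log2 fold change -0.68, adjusted p = 0.167). Cct6a, the zeta subunit, stood at 343 to 374 CPM in SDLN and at 258, 270.4 and 269 CPM in skin 1, 3 and 4, but at 32.3 CPM in skin 2. Cct4, the delta subunit, was the only tested chaperonin gene whose tissues overlapped, because SDLN 3 stood at 100.5 CPM against 532 and 469 CPM in SDLN 1 and 2. Its skin libraries were at 159.8 to 335 CPM, below those 2 SDLN libraries. Cct7, Cct8 and Cct6a share exon sequence with overlapping annotated genes, Pradc1, Usp16 and Psph in that order. A part of their reads could therefore be set aside or assigned to the other gene, and how far was not tested.

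**Figure D2:**
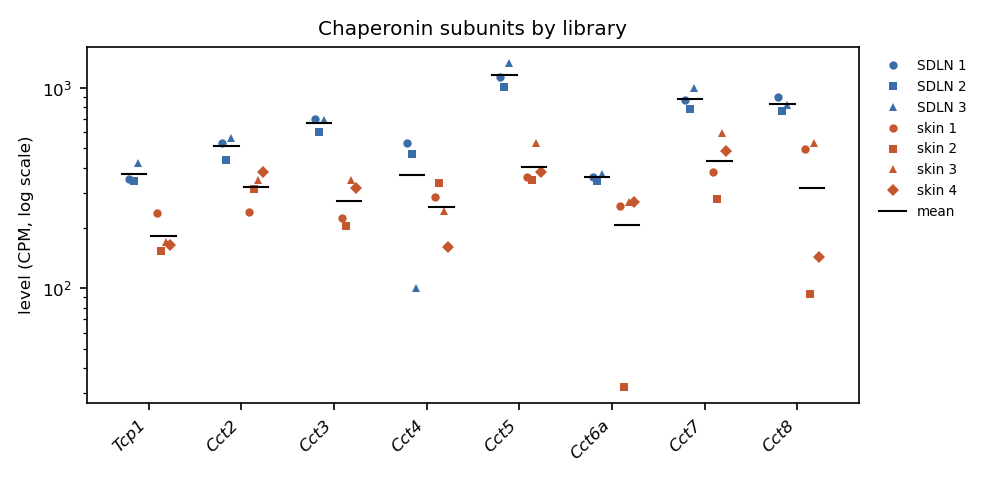
Level of each tested chaperonin subunit gene in each library, in CPM on a log axis. Points are libraries, with colour for tissue and shape for replicate number, and bars are means. Skin lies below SDLN for all but Cct4, whose SDLN 3 value is 100.5 CPM, and skin 2 stands at 32.3 CPM for Cct6a.

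The subunits are present once each in a ring, but their transcripts were not at equal levels. Per kilobase of spliced length, Cct5 stood at 626 ± 86.9 CPM in SDLN (SD, n = 3) and Cct4 at 148 ± 93.8, with Cct6a at 146 ± 6.34 and Tcp1 at 152 ± 18.3. Cct7, Cct8 and Cct3 lay between, at 363 ± 43.0, 346 ± 28.0 and 337 ± 27.9 CPM per kilobase, and these 3 did not differ beyond their SDs. Cct2 followed at 261 ± 32.8. In skin Cct5 was again the highest, at 218 ± 46.0 CPM per kilobase (SD, n = 4). The plot of chaperonin levels by library shows the widest skin spread, relative to the mean, for Cct8 and Cct6a.

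The immunoproteasome group was second in the size of its estimates. All 6 genes had estimates below 0, against 48.2% of all tested genes, with a median log2 fold change of -0.92. There was no overlap between the tissues for 4, against 16.5% of all tested genes. Of the 6, only Psmb8 was called lower, against 3.96%. Without SDLN 3, 4 of the 6 estimates were below 0. Psmb8 (chr17:34197721-34201454), the immunosubunit that replaces Psmb5, stood at 1018, 871 and 1069 CPM in SDLN 1 to 3 and at 415, 359, 316 and 267 CPM in skin 1 to 4. Its skin libraries spanned a narrow range, and none came near the lowest SDLN library. The means were 986 ± 103 CPM (SD, n = 3) and 339 ± 62.8 CPM (SD, n = 4). Skin was 2.91-fold lower, with a log2 fold change of -1.54 (SE 0.23, adjusted p = 0.0119). Among the 56 tested genes this was the smallest adjusted p, and it was 0.10005, 0.0762 and 0.0824 without SDLN 1, 2 and 3. Psmb8 overlaps the annotated gene Gm20496, and the strand setting of the counting is not given in the sources used here.

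Psmb9, the immunosubunit that replaces Psmb6, stood at 278, 248 and 357 CPM in SDLN and at 135, 186, 159 and 241 CPM in skin. The highest skin library, skin 4, lay just under SDLN 2, and the gene did not pass (log2 fold change -0.70, SE 0.28, adjusted p = 0.232). It shares exon sequence with Tap1, the peptide transporter encoded head to head with it. Psmb10, the immunosubunit that replaces Psmb7, stood at 368, 297 and 441 CPM in SDLN and was uneven in skin, at 33.1, 222, 101 and 212 CPM. All 4 skin values were below SDLN, with skin 1 the lowest, and the gene did not pass (log2 fold change -1.38, SE 0.58, adjusted p = 0.259).

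Psme1 and Psme2 encode the alternating subunits of the ring that opens the core without ubiquitin. Psme1 stood at 539.8, 443 and 747 CPM in SDLN and at 151, 302, 281 and 319 CPM in skin (log2 fold change of -1.13, SE 0.32, adjusted p = 0.0883). Its tissues did not overlap and DESeq2 called it. Psme2 stood at 28.4, 25.2 and 52.5 CPM in SDLN and at 17.2, 30.3, 24.5 and 47.2 CPM in skin, where skin 1 and 3 lay below the SDLN range and skin 2 and 4 inside it (log2 fold change -0.25, 95% interval -1.67 to 1.17). Psme2b, a copy of Psme2 on another chromosome, stood at 236, 209.9 and 371 CPM against 154, 272, 208 and 358 CPM (log2 fold change -0.14, 95% interval -0.96 to 0.69). Over 82.5% of its length the Psme2 transcript matches Psme2b at 95% identity or more, so reads of the 2 genes can be exchanged or set aside, and neither level can be read alone.

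**Figure D3:**
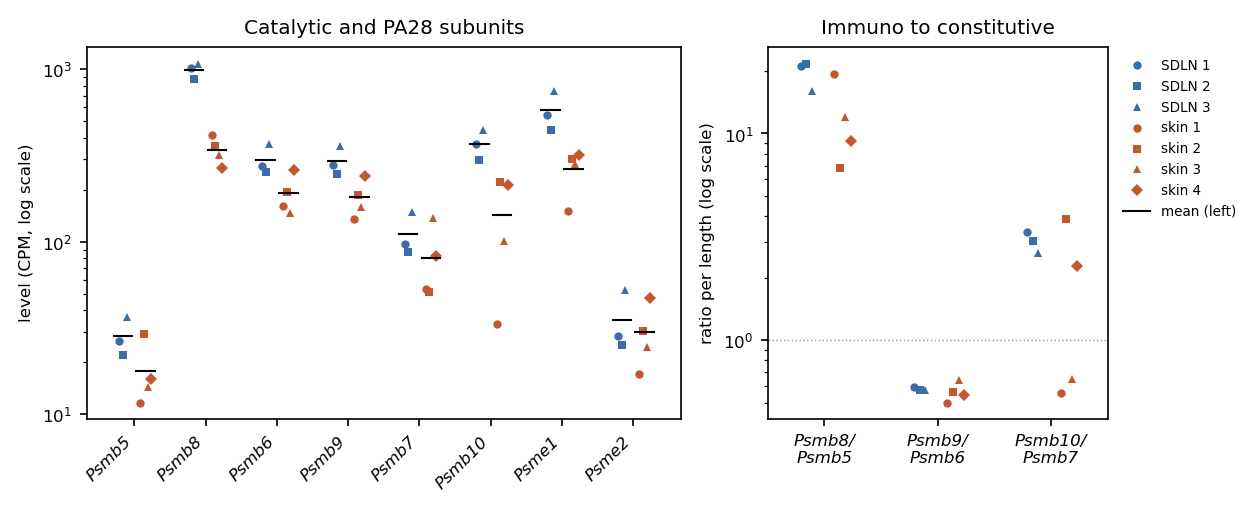
Left, level of the constitutive catalytic subunits, their immunosubunits and the activator subunits in each library, in CPM on a log axis, with bars for means. Right, ratio of each immunosubunit to the subunit it replaces, per spliced length, on a log axis with a dotted line at equal levels. Psmb8 stands apart by tissue, and the 3 ratios overlap between tissues.

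The constitutive catalytic subunits were described by the same measures. Psmb5, which carries the chymotrypsin-like site, stood at 26.5, 22.1 and 36.6 CPM in SDLN and at 11.7, 29.1, 14.5 and 15.98 CPM in skin. Psmb6, with the caspase-like site, stood at 274, 254 and 367 CPM against 160.0, 195, 147 and 261 CPM. Psmb7, with the trypsin-like site, stood at 97.1, 87.0 and 148 CPM against 52.8, 50.9, 137 and 82.0 CPM. For each of them 1 skin library reached into the SDLN range, and none passed, with log2 fold changes of -0.67 (95% interval -2.25 to 0.91), -0.65 (-1.31 to 0.02) and -0.46 (-1.49 to 0.58). The 3 genes thus leave room for no change and for changes as large as that of their immunosubunits.

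The exchange of subunits was read as a ratio within each library, which does not depend on scaling between libraries. Psmb8 to Psmb5 was 21.2, 21.7 and 16.1 per spliced length in SDLN and 19.4, 6.79, 11.998 and 9.19 in skin, with skin 1 in the SDLN range. The mean log2 ratio in skin minus that in SDLN was -0.83 (exact permutation test over 35 splits, two-sided, p = 0.114, or 0.343 with Benjamini-Hochberg adjustment over the 3 ratios). Psmb9 to Psmb6 was between 0.574 and 0.597 in SDLN and at 0.49995, 0.563, 0.640 and 0.545 in skin (difference -0.06, exact permutation p = 0.571, adjusted 0.571). Psmb10 to Psmb7 was 3.35, 3.02 and 2.63 in SDLN and 0.556, 3.85, 0.649 and 2.29 in skin, with values on both sides of SDLN (difference -1.16, exact permutation p = 0.286, adjusted 0.429). No split of these libraries can give a p under 0.0286, and none of the 3 ratios passed. In the right panel of the plot of catalytic subunits, Psmb9 to Psmb6 is the tightest ratio. Psmb5 counts need care, since 88.4% of its transcript matches the pseudogene Gm3375, and how far that lowers its counts was not tested. Psmb7 shares exon sequence with the overlapping gene Nek6, so a part of its reads could be set aside or assigned to that gene.

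The 20S core had estimates below 0 in 13 of its 14 tested genes, against 48.2% of all tested genes. It had no called member with edgeR, DESeq2 or limma-voom. At an unadjusted p under 0.05 in edgeR, 1 was lower, against 8.52% of all tested genes. The median log2 fold change was -0.51 for the alpha ring and -0.38 for the beta ring. The N-terminal tails of the alpha ring close the entry of the barrel. In this ring 2 of 7 tested genes had no overlap between the tissues, against 16.5% of all tested genes and 14.1% of the abundant ones. Psma6 had the smallest p, with 297, 251 and 402 CPM in SDLN and 109.5, 123, 184 and 231 CPM in skin (log2 fold change of -0.97, SE 0.34, adjusted p = 0.161). Psma5 was the other gene without overlap, at 54.2 ± 16.03 CPM (SD, n = 3) and 32.0 ± 10.1 CPM (SD, n = 4). Psma7 was the most abundant core gene per length and stood at 364, 307 and 449 CPM against 236, 217, 262 and 419 CPM, with skin 4 inside the SDLN range (log2 fold change -0.40, 95% interval -1.09 to 0.29). Psma1, Psma2, Psma3 and Psma4 had log2 fold changes of -0.79 to -0.42 with overlapping libraries. Psma8, the alpha subunit of testis, was at or below 0.611 CPM in SDLN and had no count in skin, and was not tested.

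In the beta ring no gene separated the tissues. Psmb2 was the most abundant of the ring per length and stood at 297, 242 and 433 CPM in SDLN and 247, 288, 222 and 272 CPM in skin (log2 fold change -0.33, 95% interval -0.95 to 0.28). Psmb1 and Psmb3, noncatalytic subunits, had log2 fold changes of -0.38 and -0.09. Psmb4, another noncatalytic subunit, was the only core gene with an estimate above 0 (0.01, 95% interval -1.44 to 1.46). It stood at 93.4, 85.5 and 25.5 CPM in SDLN and at 37.2, 51.9, 134 and 51.8 CPM in skin, so 1 low SDLN library and 1 high skin library set its estimate. Without SDLN 3 its log2 fold change was -0.40, and without skin 3 it was -0.53. Psmb11, the thymus-specific subunit, had no count in SDLN and at most 0.0920 CPM in skin.

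Cct4 and Psmb4 shared a feature of SDLN 3. That library was more than 3-fold below both other SDLN libraries for these members alone, whereas for 46 of the 56 tested members it was the highest of the 3. Of the 7046 abundant genes, 53 (0.752%) were more than 3-fold below the others in SDLN 3, against 14 (0.199%) in SDLN 1 and 7 (0.0993%) in SDLN 2. SDLN 3 was the highest SDLN library for 42.0% of these genes. Without SDLN 3, the median log2 fold change of the 20S core was -0.29 in place of -0.46, and that of the chaperonin differed from the abundant genes by -1.03 in place of -1.101.

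The 19S cap had 17 tested genes, of which 15 had estimates below 0, against 48.2% of all tested genes. For 4 there was no overlap between the tissues, against 16.5% of all tested genes and 14.1% of the abundant ones. None was called by edgeR in the reported fit. Psmc4 was called by DESeq2 and limma-voom, and by edgeR with RLE or upper-quartile scaling, without robust estimation and without skin 3. In edgeR 1 was lower at an unadjusted p under 0.05, against 8.52% of all tested genes. The 6 ATPases form 1 ring that unfolds the substrate, and their estimates ran from -1.33 to 0.20. Psmc4 stood at 268, 249 and 348 CPM in SDLN and at 130.4, 75.8, 161 and 91.1 CPM in skin, a 2.52-fold lower level with no overlap (log2 fold change -1.33, SE 0.33, adjusted p = 0.05004, just above the threshold). Psmc6 and Psmc1 also had no overlap, at log2 fold changes of -0.83 and -0.65. Psmc3, the most abundant ATPase per length, stood at 378, 304 and 409.6 CPM in SDLN and at 515, 387, 359 and 417 CPM in skin (log2 fold change 0.20, 95% interval -0.34 to 0.74). Psmc5 stood at 239, 237 and 327 CPM against 226, 301, 314 and 236 CPM (log2 fold change 0.01, 95% interval -0.57 to 0.59). The intervals of Psmc3 and Psmc5 lie above the estimate of Psmc4, although the difference between these genes of 1 ring was not tested. Psmc3 shares exon sequence with the overlapping gene Slc39a13, so a part of its reads could be set aside or assigned to that gene.

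**Figure D4:**
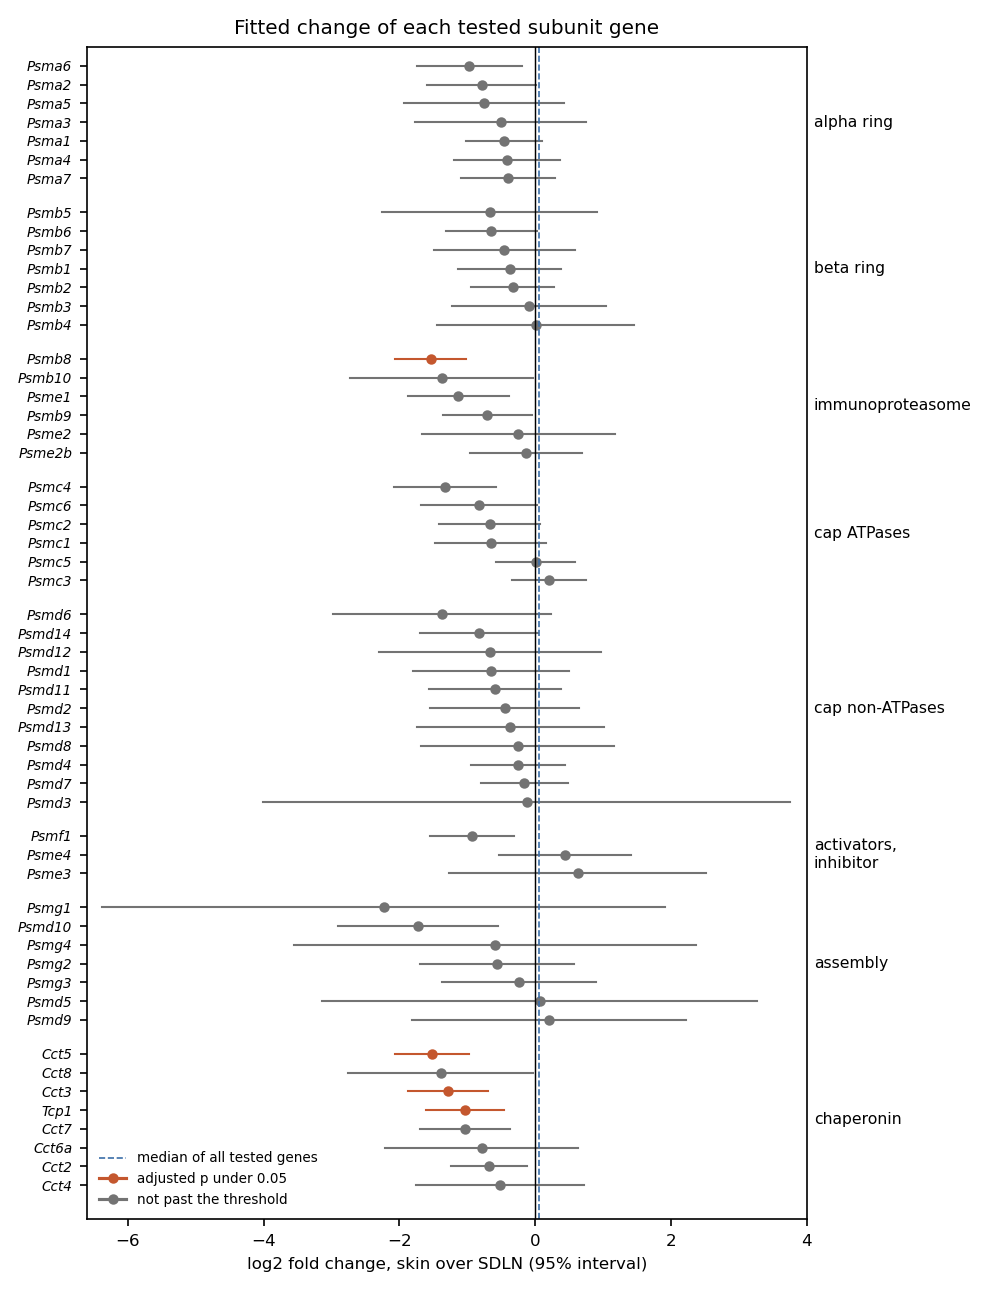
Fitted log2 fold change, skin over SDLN, of the 55 tested subunit genes, with 95% intervals and genes ordered within their groups. Red marks an adjusted p under 0.05, and the dashed line is the median of all tested genes at 0.05. The 4 red genes are Psmb8, Cct5, Cct3 and Tcp1, and the widest intervals belong to Psmg1, Psmd3, Psmd5 and Psmg4.

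Among the 11 non-ATPase genes of the cap every estimate was below 0, from -1.37 to -0.13, against 48.2% of all tested genes. Only Psmd14 had no overlap, against 16.5% of all tested genes. Psmd14, the deubiquitinase that releases ubiquitin from substrates, stood at 334, 291 and 453 CPM in SDLN and at 279, 96.3, 202 and 231 CPM in skin (log2 fold change of -0.83, SE 0.38, adjusted p = 0.296). Relative to the mean, the spread within skin was widest for Psmd3, Psmd12, Psmd6 and Psmd8, all of the lid, and narrowest for Psmd7, also of the lid, and Psmd4. Psmd12 ranged from 29.0 CPM in skin 2 to 289 CPM in skin 1, Psmd8 from 43.2 CPM in skin 2 to 297 CPM in skin 3, and Psmd6 from 14.5 CPM in skin 2 to 161 CPM in skin 3. In SDLN the same 3 genes stayed within 158 to 239.8, 146 to 199 and 144 to 228 CPM. Psmd3, another lid subunit, had no count in skin 1, where 3 counts stand for 0.276 CPM, and stood at 3.07, 35.7 and 8.20 CPM in skin 2 to 4 against 15.3, 12.5 and 10.7 CPM in SDLN. Its log2 fold change of -0.13 (95% interval -4.01 to 3.76) was 0.29 without skin 1. Psmd4, a ubiquitin receptor, and Psmd7 had log2 fold changes of -0.25 (95% interval -0.95 to 0.44) and -0.16 (-0.80 to 0.48). Psmd2, a scaffold subunit, had a log2 fold change of -0.45, and 98.2% of its transcript matches Gm5422.

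Of the 3 activators and inhibitors outside the immunoproteasome, none was called by edgeR. At an unadjusted p under 0.05, 1 was lower, against 8.52% of all tested genes. The estimate was below 0 for 1, against 48.2% of all tested genes. Psmf1, an inhibitor of the core in vitro, stood at 167, 176 and 213 CPM in SDLN and at 117, 98.05, 84.4 and 89.8 CPM in skin with no overlap (log2 fold change -0.93, SE 0.27, adjusted p = 0.0875). DESeq2 called it, as did edgeR without skin 1. Psme4, the large nuclear activator, stood at 75.4, 86.1 and 68.5 CPM in SDLN and at 68.9, 80.2, 85.8 and 181 CPM in skin (log2 fold change 0.44, 95% interval -0.53 to 1.41). Only skin 4 was above the SDLN range. Psme3, the nuclear counterpart of Psme1 and Psme2, had the highest estimate of all 56 genes at 0.63 (95% interval -1.27 to 2.52). It stood at 35.3 to 39.1 CPM in SDLN and at 5.25, 94.4, 64.8 and 65.6 CPM in skin, with skin 1 below and the others above.

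Assembly chaperones bind parts of the particle while it is built and leave the finished proteasome. None of the 7 was called by edgeR. At an unadjusted p under 0.05, 1 was lower, against 8.52% of all tested genes. The estimate was below 0 for 5, against 48.2% of all tested genes. Psmd10, or gankyrin, which guides assembly of the cap, stood at 115, 93.7 and 157 CPM in SDLN and at 23.7, 22.3, 31.6 and 69.8 CPM in skin. The tissues did not overlap and the mean ratio was 3.31, with a log2 fold change of -1.73 (SE 0.51, adjusted p = 0.0980). It was called by DESeq2 and by edgeR without skin 4. Psmd9 stood at 35.003, 35.1 and 53.5 CPM in SDLN and at 60.8, 79.4, 46.0 and 3.49 CPM in skin, and its estimate of 0.20 was -0.19 without skin 2. Psmg1 and Psmg2 form the first core assembly chaperone. Psmg1 stood at 22.2, 19.8 and 33.3 CPM in SDLN and at 9.39, 0, 0.0881 and 11.8 CPM in skin, where skin 3 held 1 count (log2 fold change -2.23, 95% interval -6.38 to 1.91). Psmg2, the most abundant assembly gene per length, stood at 77.3, 75.9 and 104 CPM against 30.1, 96.3, 69.7 and 36.7 CPM (log2 fold change -0.56). Psmd5 had 1 count in skin 1 against 9.63 to 38.6 CPM in skin 2 to 4, and Psmg3 and Psmg4 had log2 fold changes of -0.23 and -0.59 with overlap. Psmc3ip, the recombination protein, stood at 6.92, 7.59 and 13.7 CPM in SDLN and at 0, 0, 3.26 and 0.571 CPM in skin 1 to 4 (adjusted p = 0.456). Psmd3, Psmg1 and Psmc3ip were the 3 of 56 tested genes with no count in at least 1 skin library, against 29.5% of all tested genes and 7.08% of the abundant ones.

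**Figure D5:**
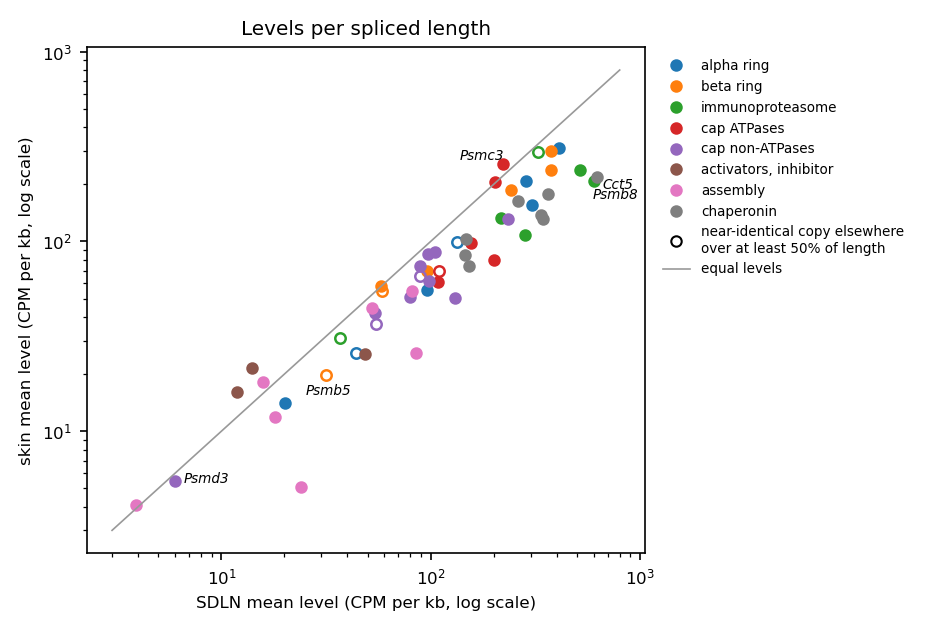
Mean level per kilobase of spliced length in SDLN (horizontal, n = 3) and skin (vertical, n = 4) of the 55 tested subunit genes, both in CPM per kilobase on log axes. Colours are groups, open circles are genes with a near-identical copy elsewhere over at least 50% of the transcript, and the line marks equal levels. Most points lie below the line, with Cct5 and Psmb8 the most abundant in SDLN.

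The complexes hold their subunits in fixed numbers, and the plot of levels per spliced length shows how far the transcripts were from that. Among subunits of the finished proteasome in SDLN, the levels ran from 5.97 CPM per kilobase for Psmd3 to 606 for Psmb8, and Cct5 of the chaperonin stood at 626. Psmb8 at 606 ± 63.3 CPM per kilobase and Cct5 at 626 ± 86.9 (SD, n = 3) did not differ beyond their SDs, nor did Psma7 at 409 ± 78.2 and Psmb2 at 377 ± 114. Psmd3 at 5.97 ± 1.096 CPM per kilobase stood far below Psmd14 of the same cap at 233 ± 54.2. The line for multiple alignments held 61.2% to 70.4% of all counts of a library, summary lines included. Neither Psmd3 nor Psmd14 had a near-identical copy elsewhere. The 9 tested members with a near-identical copy over at least 50% of the transcript had a median of 58.6 CPM per kilobase in SDLN, against 130.6 for the other 47. Their median log2 fold change was -0.45 against -0.65, and none of them was called. The part of copies in these levels was not tested.

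Skin libraries differed from each other in which members were low. Of the 56 tested genes, 24 were lowest in skin 2, 18 in skin 1, 7 in skin 3 and 7 in skin 4. More than 3-fold below their SDLN mean lay 17 members in skin 2, 11 in skin 4, 9 in skin 1 and 4 in skin 3. Neither of these counts was made over all genes, so they cannot be read as particular to the members. The median log2 ratio of the members to their SDLN means was -0.78, -0.85, -0.58 and -0.61 in skin 1 to 4, where the abundant genes had -0.02, -0.09, -0.06 and -0.08. The median coefficient of variation of the members was 0.194 in SDLN and 0.360 in skin, against 0.187 and 0.7499 for all tested genes. Of all tested genes, 29.5% had no count in at least 1 skin library, so these medians are not of genes at like levels. The abundant genes were not summarized in this way.

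Genes that work with these complexes were read from lists of their own. For comparison, 969 of the 11376 tested genes were lower and 1142 higher in edgeR at an unadjusted p under 0.05. Of 19 proteasome partners such as Pomp, Vcp and Usp14, none was called by edgeR in either direction, 2 had an unadjusted p under 0.05 and a higher level in skin, and the median log2 fold change was -0.02. Of 6 ubiquitin and ubiquitin-activating genes none was called or had an unadjusted p under 0.05, with a median of -0.17. Of 14 partners of class I presentation none was called, 1 was lower and 2 were higher at an unadjusted p under 0.05, and the median was -0.22. Tap1, the transporter next to Psmb9, stood at 320.3 CPM in SDLN and 568 CPM in skin on average (log2 fold change 0.83, adjusted p = 0.229). Of 11 tested prefoldin and cochaperone genes none was called, with a median of -0.17, and of 20 clients and later cofactors of the chaperonin none was called and 1 was higher at an unadjusted p under 0.05, with a median of -0.07. No prefoldin or cochaperone gene had an unadjusted p under 0.05. Actb, the main actin client, had a log2 fold change of -0.36 (SE 0.26) and Tubb5, a beta-tubulin, of -0.51 (SE 0.29). DESeq2 called 1 gene higher among the proteasome partners and 1 among the class I partners, and limma-voom none in these 5 lists. Without skin 1, edgeR called 1 class I partner lower and 1 higher, and 1 client higher; with any other library left out it called none in these 5 lists.

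Among 10 tested regulators of proteasome genes, 1 was called higher, against 3.28% of all tested genes. Stat3, which is known to act on proteasome gene transcription, stood at 151, 161 and 162 CPM in SDLN and at 403, 466, 408 and 483 CPM in skin (log2 fold change of 1.48, SE 0.22, adjusted p = 0.0117), with no overlap. Without SDLN 1, 2 or 3 in turn, 0 of the 10 regulators were called by edgeR, and 2, 1, 1 and 1 were called higher without skin 1 to 4. DESeq2 on all libraries called 2 higher. Nfe2l1, the factor that raises proteasome genes when the protease is inhibited, and Nfe2l2 had log2 fold changes of 0.17 (SE 0.999) and 0.19 (SE 0.40). Nfyb, a subunit of NF-Y, stood at 166.5 CPM in SDLN and 107 CPM in skin on average with no overlap and did not pass (log2 fold change -0.64, SE 0.27, adjusted p = 0.246). The median of the list was 0.45.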

How the data were processed

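Sorted Treg RNA from 3 SDLN and 4 skin libraries had been made into cDNA with a SMARTer low-input kit, per the labels' protocols. The deposited values were raw read counts per gene symbol, with no normalization; the submitters' processing notes name CASAVA 1.8.2, SAMtools 0.1.19.0, Bowtie2 2.1.0.0, HTSeq 0.6.1, TopHat2 2.0.12 and the build mm10. Annotation and strand setting were not given in the sources used here. The table's 5 summary lines were left out.

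Genes were filtered with filterByExpr (minimum count 10; 11376 kept), scaled by TMM and tested in edgeR 4.0.16 (R 4.3.3) with the robust quasi-likelihood fit, tissue as the only term, all 7 libraries, two-sided, Benjamini-Hochberg over all tested genes, called at 0.05. CPM use TMM-scaled library sizes; depth makes 3 counts 0.204 to 0.276 CPM. Ratios used counts plus 1 per spliced length. Floors cover counting error alone. Alternatives were other scalings and filters, DESeq2 1.42.0, limma-voom (limma 3.58.1), the replicate block, each library left out, a stricter threshold, and other pseudocounts for the ratios. The test was checked on counts simulated with the spread of the SDLN libraries alone. Skin libraries varied more, so that check does not cover their spread. Positions, lengths and copies (BLAST, at least 95% identity over 100 bases) came from GENCODE M21; promoters came from RefSeq.

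The genes and lists were chosen with earlier results of these data known, and CCAAT and GAANNTTC after values were seen. Genes with values in every library were the catalytic and activator subunits, called genes (at most 4 per group and direction), the smallest p in each direction and the most abundant per length in each group, and genes with no count in a skin library; others given by library, such as Cct4, Cct7, Cct8 and Psmc5, were chosen after their values were seen.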

Additional observations from a re-analysis of the deposited data

Results flagged for a closer look

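In each of the 56 tested genes and 3 ratios, the highest and lowest of the 4 skin libraries were compared with the rest by the gap to the next value over the whole range. Chance alone sets about 1 in 20 such groups apart, and 3 of 59 values stood apart here. Cct6a in skin 2 was at 32.3 CPM, against 258 to 270.4 CPM in the other skin libraries and 343 to 374 CPM in SDLN. Psmb4 in skin 3 was at 134 CPM, against 37.2 to 51.9 CPM in the other skin libraries. Psme4 in skin 4 was at 181 CPM, against 68.9 to 85.8 CPM.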

How the results depend on the processing

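The numbers of genes called lower among the 56 were 9 with DESeq2, 0 to 5 when 1 library was left out and 0 at an adjusted p under 0.01, against 4. In the fit with a replicate block, on the 6 libraries that have a partner, 0 were called. There 16 members had an unadjusted p under 0.05, and the share of all genes is not given here. The numbers were not taken as pairs, because the labels do not say that they mark a shared animal. Same-numbered libraries correlated at 0.0672, -0.0018 and -0.0401 in their deviations from the group means. Libraries of unlike numbers correlated at -0.0793 to 0.102, so these values cannot decide on pairing. SDLN 3 and skin 3 differed in sex by their Ddx3y and Xist counts. No gene of the 56 was called higher under any of the 17 other fits. Cct3, Cct5 and Psmb8 passed in 13 of the 17 and Tcp1 in 7, with highest adjusted p-values of 0.197, 0.149, 0.179 and 0.356, all with the block. The medians of the chaperonin, the immunoproteasome, the 19S cap and the 20S core stayed below 0 in these fits; that of the 20S core was -0.62 with the block and -0.61 to -0.29 with a library left out. The median of all genes was -0.62 with limma-voom and -0.55 with the block, against 0.05; relative to abundant genes (mean of 20 CPM or more), the 56 were at -0.46 with limma-voom, -0.59 with the block and -0.69 in the reported fit. Relative to all tested genes they were at -0.087, -0.24 and -0.67, so most of the difference from all genes was lost with limma-voom. All genes called lower went from 451 to 70 without a low-count filter, 99 with a mean of at least 5 CPM, 729 with limma-voom and 10 with the block.

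Estimates near 0 changed sign. Psmb4 was at -0.068 with upper-quartile scaling, -0.060 without a low-count filter, -0.0089 with limma-voom, -0.00089 with the block, and -0.40 and -0.53 without SDLN 3 and skin 3; it ran from -0.53 to 0.29 with a library left out. Psmd3 was at 0.00064, 0.29 and 0.14 without SDLN 1, skin 1 and skin 2, from -1.76 to 0.29 with a library left out and from -2.32 to 0.29 over all 17 fits. Psmd9 was at -0.61 and -0.57 with limma-voom without and with a weight per tissue, and -0.19 without skin 2; it ran from -0.19 to 0.58 with a library left out and from -0.61 to 0.58 over all 17 fits. Psme2 was at 0.14 without SDLN 3 and ran from -0.57 to 0.14 with a library left out. The causes were not tested. With 3 and 4 libraries, changes of Psmd3, Psmg1, Psmg4 and Psmd5 were not detectable at this depth and spread. Psmd3, Psmg1 and Psmd5 had counts of 0 or 1 in at least 1 skin library, and Psmg4 had 4 counts in skin 4.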

Other observations

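Of the 60 genes, 18 (30.0%) have the start of another protein-coding gene head to head within 1000 bases, against 17.7% of 10403 tested genes with an annotated start. In 15 of these pairs both genes were tested, and in 10 both estimates were below 0. For comparison, 49 of the 56 tested members and 48.2% of all tested genes had estimates below 0. None of the partners was called in either direction by edgeR. Cct5 lies 48 bases from Fam173b, which was at 37.2 CPM in SDLN and 20.1 CPM in skin on average (log2 fold change -0.89, adjusted p = 0.893). Cct3 lies 117 bases from Tsacc, which was at 5.11 and 7.18 CPM (log2 fold change 0.49). Tcp1 lies 644 bases from Mrpl18, a mitochondrial ribosomal protein gene, which was at 135.5 and 101 CPM (log2 fold change -0.43). The starts of Cct7 and Pradc1 are 456 bases apart, but the 2 genes overlap in the annotation and share exon sequence. Pradc1 was at 15.0 CPM in SDLN and 0.261 CPM in skin (log2 fold change -5.80, adjusted p = 0.102). How far the overlap bears on the counts of either gene was not tested. Psmc5, whose own estimate was 0.01, lies 75 bases from Ftsj3, a ribosome biogenesis gene at 194 CPM in SDLN and 66.3 CPM in skin (log2 fold change -1.55, adjusted p = 0.631). Shared starts and shared direction were not tested against each other.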
